A study of Homo sapiens with 4 samples.

Results

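The 4 mature miRNAs hsa-miR-191-5p, hsa-miR-191-3p, hsa-miR-425-5p and hsa-miR-425-3p (written below without the species prefix) are both arms of the hairpins MIR191 and MIR425, which lie in the same intron of DALRD3. They were chosen by name, as 4 of the 2656 mature miRNAs counted in the series, and all 4 passed the low-count filter. Small RNA was sequenced from HEK293T, an established human line of embryonic kidney origin with the SV40 large T antigen. Every group carried a landing pad, a genomic site built to take up a transgene, and was grown in serum-supplemented DMEM. In the CAG lines (2 libraries) the pad held the CAG promoter, a strong synthetic promoter that joins a cytomegalovirus enhancer to chicken beta-actin elements. In the PGK lines (2 libraries) it held the promoter of the phosphoglycerate kinase gene. The study asked which miRNAs differ between lines with these promoters. The lines were monoclonal, so promoter and clone cannot be told apart, and neither how many lines were used nor whether the replicates grew as separate cultures is stated. The p-values thus reflect the spread of these libraries alone, which may be technical.

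An intronic miRNA is cut as a hairpin from the host transcript by Drosha, and Dicer then frees a duplex of the 5p and the 3p arm. As a rule, one arm is kept by an Argonaute protein as the guide and the other is mostly degraded, so the reads of both arms reflect transcription, processing and arm retention together. DALRD3 encodes a protein with a DALR anticodon-binding domain that helps a methyltransferase modify tRNA. miR-191-5p is abundant in many human tissues and is often used as a reference for scaling other miRNAs. miR-425-5p is known to lower the mRNA of atrial natriuretic peptide. miR-191-3p and miR-425-3p are the usual passenger arms.

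GENCODE release 29 (GRCh38) places MIR191 on chromosome 3 at 49020618 to 49020709 and MIR425 at 49020148 to 49020234, both on the minus strand, like DALRD3 (49015488 to 49022293). MIR191 comes earlier along the transcript, and 383 bases separate the hairpins. Both lie in intron 1 of 4 annotated DALRD3 transcripts, 3 of them protein-coding. In 1 of the protein-coding transcripts this intron runs over bases 49018319 to 49020845. MIR191 also sits, on the opposite strand, within intron 1 of an NDUFAF3 transcript. The deposited tables hold no coordinates, so positions were looked up by hairpin name, and the authors' build may differ. The mature sequences in RefSeq (GRCh38.p14, minus strand, written 5′ to 3′) are shown for their seeds. The seed largely sets the targets of each arm and separates the 4 entries in the counts of seed families. Capitals mark the seed, bases 2 to 8.

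miR-191-5p: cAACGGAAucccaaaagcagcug
miR-191-3p: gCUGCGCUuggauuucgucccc
miR-425-3p: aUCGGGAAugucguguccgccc

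RefSeq sequences were matched for these 3 members; miR-425-5p has the counts of the seed family AUGACAC in the deposited family table. miR-191-5p begins with C and is 23 bases long, with 52.2% G or C. miR-191-3p and miR-425-3p begin with G and A, and each is 22 bases long with 63.6% G or C. No other of the 2367 RefSeq mature miRNAs matched to the count table had any of the 4 seeds. The family entries of the 3 seeds read from RefSeq held the same counts as their members in all 4 libraries; that of miR-425-5p was identified by its equal counts. The closest match by seed was miR-6771-5p, which shares the leading 6 seed bases of miR-425-3p and had 0 reads in all libraries together. Whole sequences were not compared. RNAfold gave the MIR191 hairpin (92 bases) a minimum free energy of −46.8 kcal/mol and the MIR425 hairpin (87 bases) −34.5 kcal/mol. Per base, MIR191 was predicted to be more stable than 67.0% of 1560 RefSeq hairpins and MIR425 more stable than 31.1%.

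Total miRNA counts were 13780279 and 2845945 in CAG replicates 1 and 2, and 7927615 and 7331437 in PGK replicates 1 and 2. Levels are CPM, counts scaled to library size with TMM factors, and 1 read was worth 0.0777 to 0.324 CPM. The marker list of liver, blood, neuron, muscle and mesenchyme held 8 miRNAs, and all 8 were under 10 CPM in every library. The list is short, and other neural and muscle miRNAs outside it were higher. miR-9-5p averaged 2952 CPM and miR-1-3p 57.4 CPM over the 4 libraries, both named after their values were seen. Low levels of the 8 thus do not extend to all miRNAs of these cell types. Their summed level was 2.87 and 1.62 CPM in the CAG libraries and 4.76 and 6.27 CPM in the PGK libraries. Within the sum, miR-133a-3p had 0.311 and 0 CPM in CAG replicates 1 and 2, and 2.50 and 1.95 CPM in PGK replicates 1 and 2. edgeR called it lower in CAG (log2 fold change −3.09, adjusted p = 0.0171), on at most 20 reads in a library. miR-122-5p was tested and not called (edgeR adjusted p = 0.756). miR-223-3p had no read, which allows up to 0.972 CPM in the shallowest library. In bulk RNA, fewer cells with a miRNA and less of it per cell cannot be told apart.

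miR-191-5p was the most abundant product of the intron and the steadiest of the 4. It stood at 7570.4 and 6989.9 CPM in CAG replicates 1 and 2, and at 6960.1 and 7225.9 CPM in PGK replicates 1 and 2. The groups overlapped. It made up 0.707% and 0.758% of all miRNA counts in the CAG libraries and 0.702% and 0.707% in the PGK libraries, and ranked 25 or 26 among all miRNAs in each library.

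miR-425-5p, the guide arm of the other hairpin, was lower and differed more between replicates than between groups. Its level was 1716 and 975 CPM in CAG replicates 1 and 2, and 1304 and 1000.5 CPM in PGK replicates 1 and 2. In both groups replicate 1 was the higher library, 1.76-fold in CAG and 1.30-fold in PGK. Of the 221 tested miRNAs that averaged 100 CPM or more and had reads in every library, no other had replicate 1 as far above replicate 2 in both groups. In either direction, 3 others had gaps as wide in both groups: miR-12135, miR-1268a and miR-1268b, named after their values were seen. The cut-offs in these counts are the gaps of miR-425-5p itself. Taken 1 group at a time, 14 of the 222 tested miRNAs averaging 100 CPM or more had a larger gap between the CAG replicates. Between the PGK replicates 35 did. The labels do not say whether libraries with the same number share anything. The rank of miR-425-5p ran from 59 in CAG replicate 1 to 79 in both replicate 2 libraries.

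The passenger arms were scarcer. miR-425-3p stood at 133 and 139 CPM in CAG replicates 1 and 2, and at 126 and 151 CPM in PGK replicates 1 and 2. Its groups overlapped, and unlike the 5p arm of the same hairpin its level was lower in replicate 1 of both groups. miR-191-3p stood at 41.1 and 44.1 CPM in CAG replicates 1 and 2, and at 29.5 and 36.5 CPM in PGK replicates 1 and 2. Both CAG libraries were above both PGK libraries. That held for 57.2% of the 773 tested miRNAs in one direction or the other. Its shallowest reading rested on 136 reads in CAG replicate 2. The exact 95% Poisson intervals were 37.7 to 44.7 and 37.0 to 52.1 CPM in CAG replicates 1 and 2. In PGK replicates 1 and 2 they were 25.9 to 33.5 and 32.2 to 41.2 CPM. The interval of PGK replicate 1 lay below both CAG intervals, and that of PGK replicate 2 overlapped both. These intervals cover counting error only, because reads amplified by PCR without molecular identifiers are not independent molecules.

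The order of levels was the same in all 4 libraries: miR-191-5p, miR-425-5p, miR-425-3p, miR-191-3p. The ranges over libraries did not overlap between any neighbours in this order. The hairpin with the most abundant 5p arm had the scarcest 3p arm. Adapters ligate to some sequences more readily than to others, which limits comparisons of level between miRNAs more than comparisons of 1 miRNA between libraries. The summed reads of both MIR191 arms averaged 7323 ± 408 CPM in CAG libraries and 7126 ± 193 CPM in PGK libraries (SD, n = 2 each). Those of both MIR425 arms averaged 1481 ± 520 CPM in CAG libraries and 1291 ± 197 CPM in PGK libraries.

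**Figure D1:**
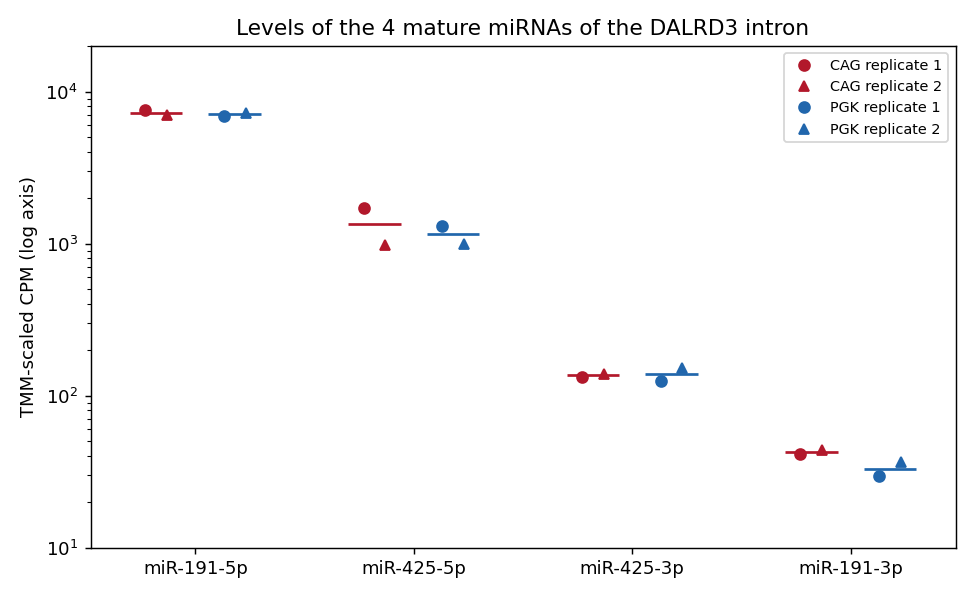
TMM-scaled CPM (log axis) of the 4 members, with CAG libraries in red and PGK libraries in blue; circles are replicate 1, triangles replicate 2 and bars the mean of 2 libraries. The members keep the same order in every library, miR-425-5p is spread most between replicates, at 1716 and 975 CPM in CAG, and only miR-191-3p has both CAG libraries above both PGK libraries.

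Between CAG and PGK cells, none of the 4 members was called by edgeR's quasi-likelihood test (0 of 4 at an adjusted p under 0.05), against 14.2% of the 773 tested miRNAs. At an unadjusted p under 0.05 the count was also 0 of 4, against 208 of all 773. DESeq2 called 0 of 4 members and 95 miRNAs in all, and limma-voom 0 of 4 and 113. The median log2 fold change of the members (CAG minus PGK) was 0.13, beside −0.0042 over all tested miRNAs.

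miR-191-5p averaged 7280.2 ± 410.5 CPM in CAG cells and 7093 ± 188 CPM in PGK cells (n = 2 each), a fold of 1.03 with a 95% interval of 0.815 to 1.29 (edgeR adjusted p = 0.891). Its log2 fold change was 0.04 and became −0.0074 without PGK replicate 1 and −0.014 without CAG replicate 1. For miR-425-3p the means were 136 ± 4.76 CPM in CAG cells and 138 ± 18.1 CPM in PGK cells (n = 2 each), and the fold was 0.981, with an interval of 0.734 to 1.31 (edgeR adjusted p = 0.931). Its log2 fold change of −0.03 became 0.10 without PGK replicate 2 and 0.02 without CAG replicate 1. Both intervals were narrower than those of the other arms.

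The remaining arms had the wider intervals. miR-425-5p averaged 1345 ± 524 CPM in CAG cells and 1152 ± 215 CPM in PGK cells (n = 2 each), a fold of 1.17 with an interval of 0.780 to 1.75 (edgeR adjusted p = 0.617). The log2 fold change of 0.23 became 0.58 without CAG replicate 2 (edgeR adjusted p = 0.0135) and −0.24 without CAG replicate 1 (edgeR adjusted p = 0.533). Each of these fits has 1 CAG library, which is assumed to vary like the PGK pair. For the same counts in the table of families, the fit without CAG replicate 2 gave an edgeR adjusted p of 0.126. Over all 15 alternatives the adjusted p ran from 0.0135 to 0.965. miR-191-3p averaged 42.6 ± 2.12 CPM in CAG cells and 33.0 ± 4.95 CPM in PGK cells (n = 2 each), a fold of 1.28 with an interval of 0.918 to 1.80 (edgeR adjusted p = 0.308). It kept this direction in all 15 alternatives, with log2 fold changes of 0.20 to 0.52 and adjusted p-values of 0.274 to 0.681, and was called in none.

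**Figure D2:**
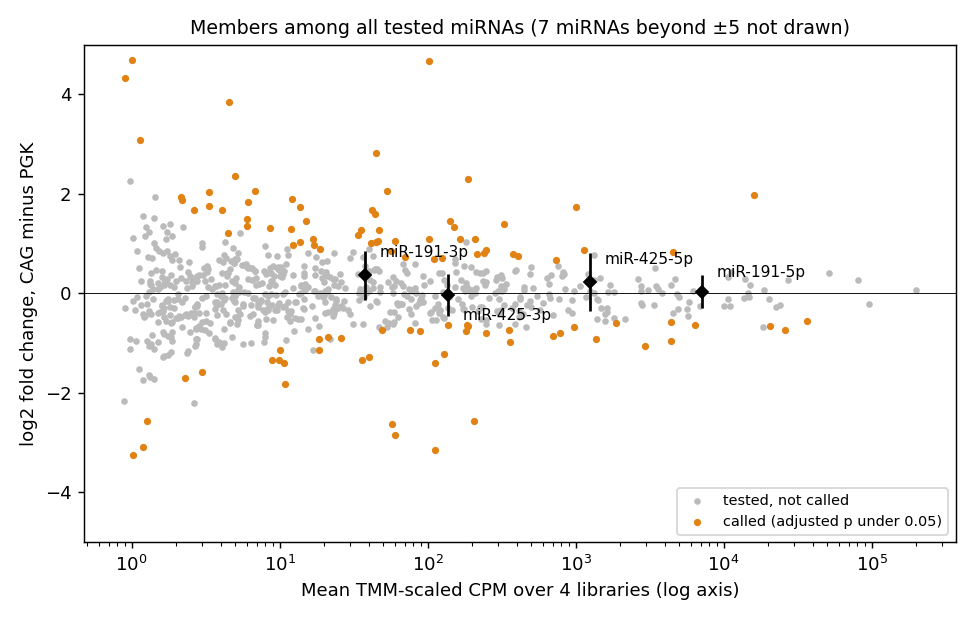
Log2 fold change (CAG minus PGK) against mean TMM-scaled CPM (log axis) for the tested miRNAs; grey points were not called, orange points were called, and black diamonds are the members with their 95% intervals from edgeR. All 4 intervals cross 0, and the members lie between −0.03 and 0.36; 7 miRNAs beyond ±5 are not drawn.

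In the table of seed families the entries AACGGAA (miR-191-5p), CUGCGCU (miR-191-3p), AUGACAC (miR-425-5p) and UCGGGAA (miR-425-3p) had log2 fold changes of 0.0024, 0.33, 0.19 and −0.06. None passed the test, with edgeR adjusted p-values of 0.359 to 0.994, against 10.4% called of 642 families. The counts are those of the members, so this is the same evidence under another scaling.

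The arms of each hairpin were then set against each other within a library, which needs no scaling between libraries. In MIR191 the 5p arm exceeded the 3p arm 184-fold and 159-fold in CAG replicates 1 and 2, and 236-fold and 198-fold in PGK replicates 1 and 2. Both CAG ratios were below both PGK ratios, as in one direction or the other for 32.6% of the 178 hairpins with both arms tested. The 3p arm held 0.540% and 0.627% of the hairpin's reads in the CAG libraries, and 0.423% and 0.503% in the PGK libraries. The exact (Clopper-Pearson) 95% intervals of CAG replicate 1 (0.495% to 0.588%) and PGK replicate 2 (0.444% to 0.568%) overlapped. That of PGK replicate 1 (0.370% to 0.480%) lay below those of CAG replicate 1 and CAG replicate 2 (0.526% to 0.741%). These intervals cover the sampling of reads alone. The difference in log2 ratio (CAG minus PGK) was −0.34 (SE 0.33, interval −0.98 to 0.31), which did not pass limma's test over these hairpins (adjusted p = 0.965; 0.562% called).

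In MIR425 the imbalance of the arms was smaller and varied between replicates. The 5p arm exceeded the 3p arm 12.9-fold and 6.99-fold in CAG replicates 1 and 2, and 10.4-fold and 6.61-fold in PGK replicates 1 and 2. The groups overlapped, and replicate 1 had the higher ratio in both. The 3p arm held 7.17% (interval 6.85% to 7.51%) and 12.5% (11.4% to 13.7%) of the hairpin's reads in CAG replicates 1 and 2. In PGK replicates 1 and 2 it held 8.79% (8.27% to 9.32%) and 13.1% (12.4% to 13.9%). The intervals of replicates did not overlap in either group; they cover the sampling of reads alone and are too narrow where PCR copies are counted. Among the 32 hairpins with both arms at a mean of at least 100 CPM, 1 had a larger gap between the CAG replicates, 2 had a larger gap between the PGK replicates and 0 in both. The cut-offs here too are the gaps of MIR425 itself. MIR191 is not among the 32, as miR-191-3p averaged 37.8 CPM. The gap of MIR425 was 1.85-fold in CAG and 1.57-fold in PGK, beside medians of 1.24-fold and 1.16-fold over the 32 hairpins.

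The difference in the log2 arm ratio of MIR425 between CAG and PGK was 0.20 (SE 0.27, interval −0.33 to 0.73, limma adjusted p = 0.984). This SE is drawn by limma towards the spread of the other hairpins. The SD of the log2 ratio was 0.63 in CAG and 0.46 in PGK (n = 2 each), and limma without trend or robust fitting gave an SE of 0.46. The interval is thus narrower than these replicates alone would give. The difference became −0.13 without PGK replicate 2, 0.64 without CAG replicate 2 and −0.25 without CAG replicate 1. An exact two-sided permutation test of 2 against 2 libraries gives no p below 0.333; it gave 0.333 for the arm ratio of MIR191 and 0.667 for that of MIR425.

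Set beside all 178 hairpins, 19 had arms more unequal than those of MIR191, whose mean over libraries was 192-fold (geometric mean). That order disregards which arm is the higher. The next hairpins in it were miR-148a at 184-fold (3p arm higher) and miR-1271 at 194-fold (5p arm higher). MIR425, at 8.87-fold, was close to the median of 9.87-fold. It lay between miR-106b at 8.86-fold and miR-193b at 8.89-fold, in both of which the 3p arm was higher. The 5p arm was the higher in 93 of the 178 hairpins, as in MIR191 and MIR425.

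**Figure D3:**
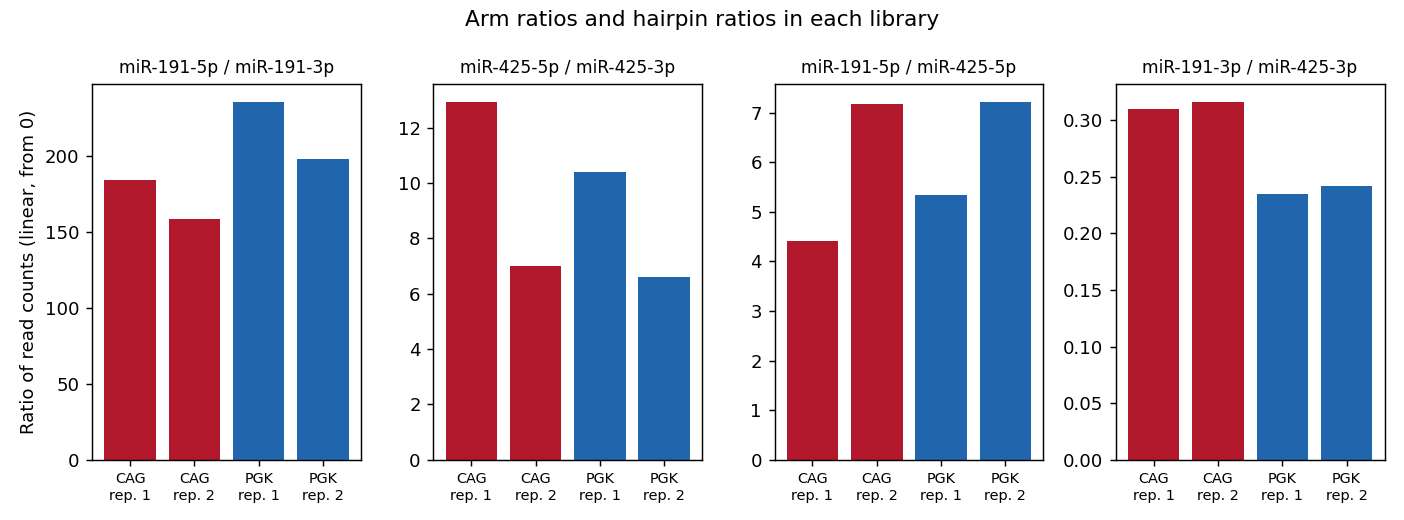
Ratios of read counts in each library (linear axes from 0), from left to right the 5p to 3p ratio of miR-191, that of miR-425, the ratio of the 5p arms and the ratio of the 3p arms; red bars are CAG and blue bars PGK. The middle panels differ by replicate within each group (12.9 and 6.99 in CAG, 10.4 and 6.61 in PGK for the arms of miR-425), while the ratio of the 3p arms has both CAG bars above both PGK bars.

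The products of the same intron were not equally abundant. miR-191-5p exceeded miR-425-5p 4.41-fold and 7.17-fold in CAG replicates 1 and 2, and 5.34-fold and 7.22-fold in PGK replicates 1 and 2. The groups overlapped, as in all but 20.8% of the 48 pairs of adjacent hairpins fitted, and the replicate 2 libraries lay close to each other. The difference in log2 ratio was −0.14 (CAG minus PGK, SE 0.29, interval −0.74 to 0.45; limma adjusted p = 0.966), with 2.08% of these pairs called. It became 0.08 without PGK replicate 2, −0.49 without CAG replicate 2 and 0.21 without CAG replicate 1, and the exact permutation p was 0.667. Averaged over libraries the ratio was 5.91-fold, and 22 of the 48 pairs were more unequal; the median was 4.36-fold. The pairs next in order were miR-374b-5p over miR-421 at 4.41-fold and miR-3187-3p over miR-4745-5p at 7.13-fold. These pairs were adjacent tested hairpins on one strand with starts within 10 kb, each represented by its more abundant arm.

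**Figure D4:**
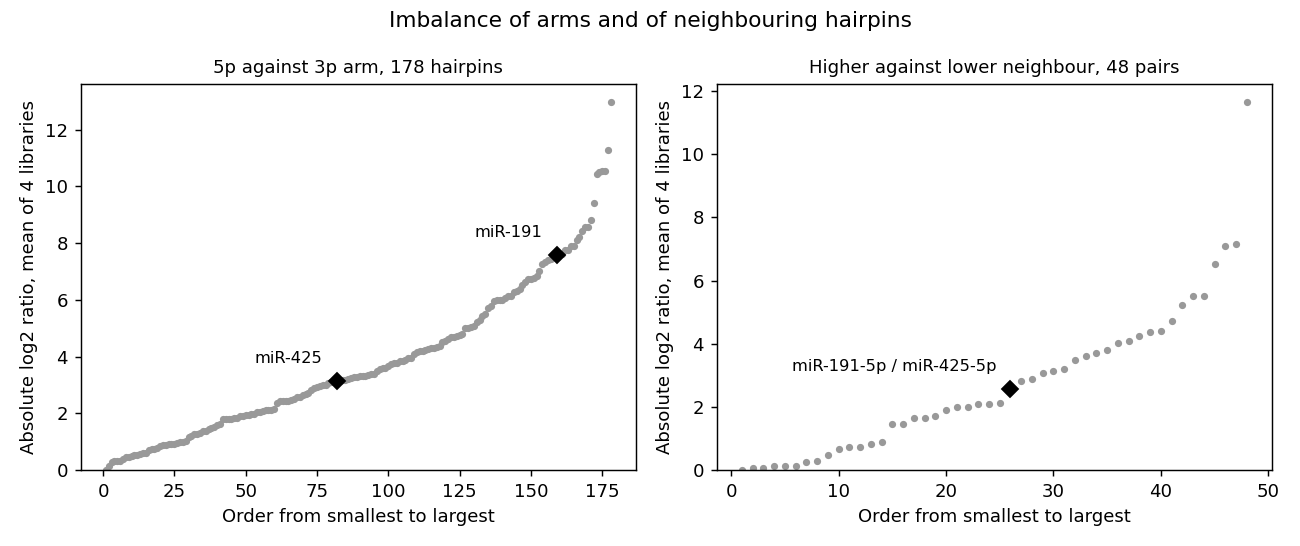
Absolute log2 ratio (mean of 4 libraries) in increasing order, for the 5p against the 3p arm of 178 hairpins (left) and for the higher against the lower of 48 pairs of neighbouring hairpins (right); black diamonds are the DALRD3 hairpins. MIR191 lies near the upper end (19 hairpins more unequal), while MIR425 and the pair of 5p arms lie near the middle.

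Among the passenger arms the order of the hairpins was turned round. miR-425-3p exceeded miR-191-3p 3.23-fold and 3.16-fold in CAG replicates 1 and 2, and 4.25-fold and 4.14-fold in PGK replicates 1 and 2. Replicates were close and the groups did not overlap, as in 21.1% of the 19 neighbouring pairs whose less abundant arms were both tested. This ratio was examined after its values were seen. The log2 ratio of miR-191-3p to miR-425-3p averaged −1.67 ± 0.02 in CAG and −2.07 ± 0.03 in PGK cells (SD, n = 2). The difference was 0.39 (SE 0.28, interval −0.18 to 0.97, limma adjusted p = 0.914, unadjusted p = 0.173), and limma called 0 of the 19 pairs. Here the SE is drawn by limma towards the spread of the other pairs, so it is wider than the SDs of this ratio. Without PGK replicate 1 or PGK replicate 2 the difference was 0.37 and 0.41 (SE 0.12 each; limma adjusted p = 0.132 and 0.0317); PGK then had 1 library, assumed to vary like the CAG pair and the other ratios. Without CAG replicate 1 or CAG replicate 2 it was 0.41 and 0.38 (SE 0.62 and 0.66; adjusted p = 0.954 and 0.971), and with the replicate number as a block the SE was 0.44 (adjusted p = 0.983).

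As a reference miRNA, miR-191-5p was among the steadiest. Its coefficient of variation over the 4 libraries was 3.93%, and 7 of the 222 tested miRNAs averaging 100 CPM or more had a lower one; their median was 18.4%. The value was 7.96% for miR-425-3p, 16.7% for miR-191-3p and 27.7% for miR-425-5p. In a list of 17 miRNAs commonly used for scaling, edgeR called 1 higher in CAG cells and 0 lower, against 8.15% called higher and 6.08% called lower of all 773. The median log2 fold change of the list was 0.01, and its median coefficient of variation was 11.0%. miR-26a-5p varied least in the list (3.46%), and miR-191-5p had the third lowest value. miR-99a-5p varied most (32.8%) and was the member that rose, with a log2 fold change of 0.83 (SE 0.16, edgeR adjusted p = 0.0051).

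The profile of each member over the 4 libraries was compared with those of tested miRNAs averaging 100 CPM or more, by the root mean square difference of centred log2 CPM. These distances describe 4 points and carry no test. The nearest to miR-191-5p were miR-769-5p (0.011), miR-26a-5p (0.023) and miR-215-5p (0.034). miR-769-5p stood at 1024 and 947 CPM in CAG replicates 1 and 2 and at 949.6 and 964 CPM in PGK replicates 1 and 2. Its partners of the intron were farther away, miR-425-3p in position 20 and miR-425-5p in position 147 of 220.

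Closest to miR-425-5p was miR-7-5p (0.108), with 76662 and 41487 CPM in CAG replicates 1 and 2 and 47543 and 41262 CPM in PGK replicates 1 and 2. It was followed by miR-96-5p (0.110) and miR-548bc (0.144). In all 3, CAG replicate 1 was the highest library and PGK replicate 1 the next, a pattern they were chosen to share. The other arm of its own hairpin, miR-425-3p, came in position 112 of 220. miR-425-3p was most like miR-25-5p (0.051), miR-95-3p (0.054) and miR-484 (0.056). miR-191-3p was most like miR-598-3p (0.021), miR-450a-5p (0.035) and miR-450b-5p (0.065). Each was higher in both CAG than in both PGK libraries, which follows from the choice by likeness. The groups did not overlap for 57.2% of all 773 tested miRNAs. The 5p arm of the same hairpin, miR-191-5p, was in position 51 of 221.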

How the data were processed

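Per the labels' protocols, Trizol-extracted total RNA went into small RNA libraries with an NEBNext kit. The authors deposited whole-number read counts for 2656 mature miRNAs and for seed families, 1 column per library. Trimming, aligner, annotation, build and the rule for shared reads were not given in the sources used here. Groups and replicate numbers came from the sample titles. The members and lists were chosen with earlier results of these data known. Named miRNAs are the members, the 3 nearest profiles of each (mean of at least 100 CPM), the extremes of the reference list and the neighbours in ordered ratios.

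Tests ran in R 4.3.3: edgeR 4.0.16 (quasi-likelihood, robust, TMM, group only, low-count filter with minimum count 10 and total 15) on all 773 retained miRNAs, and limma 3.58.1 (robust, variance trend on the scarcer count) on log2 count ratios with 0.5 added. Adjustment was by Benjamini-Hochberg over each table. Fold intervals are 95%. Both edgeR and limma draw the variance of each row towards that of the other rows fitted. Chi-square statistics per degree of freedom of 150.3 (CAG) and 76.4 (PGK) showed that replicates were not copies. GENCODE 29 held a hairpin name for 2546 miRNAs; pairs used the 2364 from a single locus. Folding used ViennaRNA 2.7.2. DESeq2 1.42.0 and limma-voom were alternatives. The edgeR test of miRNAs and the limma fit of arm ratios were also run on simulated counts with the same spread for all miRNAs. The fits of neighbouring hairpins, of seed families and with a library left out were not.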

Additional observations from a re-analysis of the deposited data

How the results depend on the processing

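Of the 4 members, no scaling, filter, tool, thinning or removal of the 5 most abundant miRNAs changed a direction or a call. Leaving out libraries did. The log2 fold change ran from −0.014 to 0.10 for miR-191-5p (−0.0074 without PGK replicate 1), 0.20 to 0.52 for miR-191-3p, −0.24 to 0.58 for miR-425-5p (past the threshold at 0.58, where CAG had 1 library, assumed to vary like the PGK pair) and −0.17 to 0.10 for miR-425-3p. The arm ratio difference ran from −0.46 to −0.21 for miR-191 and −0.25 to 0.64 for miR-425, and that of miR-191-5p to miR-425-5p from −0.49 to 0.21. The families gave −0.084 to 0.059 (AACGGAA), 0.15 to 0.46 (CUGCGCU), −0.30 to 0.54 (AUGACAC) and −0.22 to 0.049 (UCGGGAA). Calls over all miRNAs numbered 110, and 16 to 162 with a library left out, 63 with the replicate block, 64 after thinning and 49 at a threshold of 0.01. The cause was not tested, apart from the stricter threshold and the smaller depth. Across all tested miRNAs the replicate gaps of both groups were not correlated (r = −0.017, and miRNAs are not independent). This value cannot show whether same-numbered libraries share something that affects particular miRNAs, which was not tested. The replicate block changed no member's call. The lowest count behind a member was 136 reads, for miR-191-3p in the shallowest library.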
